A study of Homo sapiens with 6 samples.

Results

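Expression of 36 genes of glycolysis and of the response to low oxygen was examined in SH-SY5Y cells, an established line from a human neuroblastoma, among the 60612 genes of the deposited table. The members were taken by name from that table, and each of the 36 names stood on 1 row. They fall into 21 glycolysis genes and 15 hypoxia genes: the first group holds glucose transporters, enzymes from glucose to pyruvate with their isozymes, enzymes that set fructose-2,6-bisphosphate, and lactate dehydrogenase, and the second holds subunits and regulators of the hypoxia-inducible factor (HIF) and other HIF targets. Of the 6 libraries, 3 came from cells infected with a vector said to raise CDKN2B-AS1, a noncoding transcript antisense to the cell cycle inhibitor gene CDKN2B (labelled overexpression), and 3 from cells infected with a control vector. The title of the series speaks of mutation of CDKN2B-AS1, whereas its design text and labels speak of overexpression. Both groups were thus infected SH-SY5Y cells, and no label states an oxygen level, a time after infection, or separate cultures for the libraries of a group, so p-values measure a spread between libraries that may be technical. All labelled overexpression columns carry the tag LVx2 and all control columns the tag LVx1. No label explains these tags, and whatever they mark cannot be told apart from the vector.

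Glycolysis splits glucose into pyruvate in the cytosol and yields ATP without oxygen, and lactate dehydrogenase then turns pyruvate into lactate and regenerates NAD+. Several of its steps are run by isozymes from separate genes, and in the brain ENO2 is widely used as a marker of neurons and ALDOC as one of astrocytes and Purkinje cells. HIF is a pair of an alpha subunit (HIF1A or EPAS1) and ARNT. With oxygen present, the prolyl hydroxylases encoded by EGLN1 and EGLN3 mark the alpha subunit for destruction through VHL; with little oxygen it survives and raises the transcription of most glycolytic genes and of genes for blood vessel growth, acid balance and mitophagy. Control of HIF1A is therefore largely at the protein, which RNA levels do not show.

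The values were FPKM, fragments scaled by gene length and by the total assigned to genes. The depth recovered from them ran from 20466583 to 48996425 fragments in the labelled overexpression libraries and from 29048596 to 45102020 in the control vector libraries. CDKN2B-AS1 itself stood at 0.338, 0.304 and 0.353 FPKM in labelled overexpression replicates 1, 2 and 3 and at 0.272, 0.288 and 0.191 FPKM in control vector replicates 1, 2 and 3. The groups did not overlap, but the ratio of means was 1.33 (exact two-sided permutation test, p = 0.1, the smallest that 3 libraries against 3 allow), and every direction below is that of the libraries as labelled. The neuroblastoma identity of the cells was checked against 13 adrenergic markers, 12 of which reached 1 FPKM in at least 3 libraries, with a summed level of 1312 to 1423 FPKM in labelled overexpression and 1236 to 1387 FPKM in control vector libraries. Of 6 epithelial and 5 immune markers 0 reached that level, and PTPRC, CD3E and KRT5 were at 0. Fibroblast markers summed to 45.4 to 51.2 FPKM in labelled overexpression and 41.3 to 53.9 FPKM in control vector libraries (5 of 8 genes at that level), and Schwann and glial markers to 3.34 to 3.54 FPKM in labelled overexpression and 3.03 to 6.92 FPKM in control vector libraries (1 of 5 genes).

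Together the glycolysis genes took a far larger share of the fragments than the hypoxia genes. The 21 glycolysis genes took 2.15%, 2.15% and 2.07% of all assigned fragments in labelled overexpression replicates 1, 2 and 3 and 2.36%, 2.3% and 2.11% in control vector replicates 1, 2 and 3. The ranges overlapped through control vector replicate 3, with means of 2.12% ± 0.0466 in labelled overexpression and 2.25% ± 0.130 in control vector libraries (SD, n = 3 each). The 15 hypoxia genes together took 0.0666% ± 0.00435 in labelled overexpression and 0.0693% ± 0.000249 in control vector libraries. On the FPKM scale GAPDH, the enzyme that oxidises glyceraldehyde-3-phosphate, had the highest level of the members, at 2545, 2709 and 2246 FPKM in labelled overexpression and 2569.9, 2772 and 2353 FPKM in control vector libraries. TPI1, ENO1 and LDHA followed in listed FPKM, and the 6 library values did not overlap between neighbours over these 4 ranks. PGAM1, LDHB, PKM, ALDOA and PGK1 came next with overlapping ranges, and HK1, ENO2 and GPI after them, again overlapping with each other. Of the 36 members 12 averaged at least 50 FPKM, all of them glycolytic, and 21 averaged at least 10 FPKM.

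**Figure D1:**
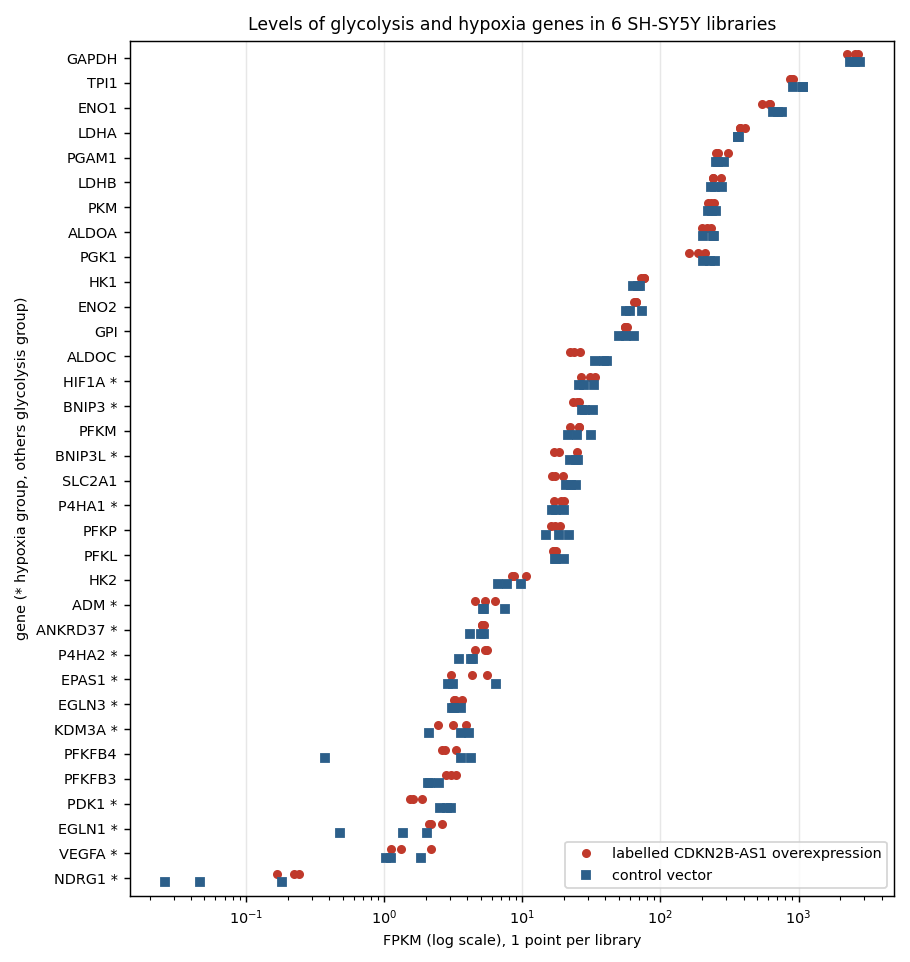
FPKM of each member in each library on a log axis, with labelled overexpression libraries as circles above control vector libraries as squares, ordered by mean level. The members span from GAPDH, whose libraries lie at 2246 FPKM and above, to NDRG1 at 0.242 FPKM and below, and CA9 and SLC2A3, listed at 0 in all 6 libraries, are not drawn.

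At the low end, CA9, a carbonic anhydrase of the cell surface and one of the most HIF-dependent genes known, and SLC2A3, the neuronal glucose transporter GLUT3, were listed at 0 FPKM in all 6 libraries. SLC2A3P1, a pseudogene of SLC2A3, was not at 0, with 1.61 ± 0.479 FPKM in labelled overexpression and 0.846 ± 0.25 FPKM in control vector libraries (SD, n = 3 each), and its groups overlapped. NDRG1, a stress-induced gene of the N-myc downstream-regulated family, stood at 0.242, 0.224 and 0.168 FPKM in labelled overexpression and at 0.0259, 0.184 and 0.0461 FPKM in control vector libraries. These values rested on 55 to 99 fragments in the labelled overexpression libraries and 14 to 64 in the control vector libraries, and control vector replicate 2 lay among the labelled overexpression libraries. These 3 members failed the filter on low values (at least 1 FPKM in at least 3 libraries), and 33 were tested. Levels between genes also depend on the length used for scaling, which for VEGFA was 14431 bases in the table against 1199 bases for its principal transcript in GENCODE v29. With principal transcript lengths the first 4 ranks were the same genes in the same order, while PKM moved to rank 5 from 7 and PGAM1 to rank 8 from 5. Ranks also depend on overlapping genes. On the strand of ALDOA (18112.9 to 41722.2 fragments) CTD-2515O10.6 carried 18053.9 to 41637.7. On that of LDHB (14724.8 to 39965.5) ENSG00000285854 carried 14045.8 to 38773.5. Adding these could move ALDOA and LDHB in the order, which was not computed.

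The comparison of the labelled overexpression with the control vector asked which messages differ between cells given the vector labelled as raising CDKN2B-AS1 and those given the control vector. ALDOC, aldolase C, was the member that passed the test, and it was lower in the labelled overexpression libraries. Among the 33 tested members 0 were higher, 1 was lower and 32 did not pass in limma-trend with Benjamini-Hochberg adjustment over 13984 genes at 0.05, where 1.14% of all tested genes passed, 0.529% higher and 0.608% lower. The median log2 fold change, labelled overexpression minus control vector on log2(FPKM + 0.5), was -0.03 over the 20 tested glycolysis genes and 0.06 over the 13 tested hypoxia genes, beside 0.05 over all tested genes. The glycolysis genes had 7 values above 0 and 13 below, the hypoxia genes 8 above and 5 below, and of all tested genes 56.8% were above 0. When each library was rescaled to the same FPKM total, the median of all genes moved up by 0.10 and that of the glycolysis genes to 0.08, and without control vector replicate 1 the glycolysis median was 0.0032, so its sign was not stable. Its distance from the median of all genes was -0.09 as deposited and -0.07 when rescaled, but -0.15 with the length trend removed. Leaving out control vector replicate 1 made this distance -0.045, and leaving out replicate 3 of that group made it -0.16. Over all genes the calls were 74 higher and 85 lower as deposited, 181 higher and 52 lower with the common total, and 59 higher and 119 lower with median-of-ratios factors. In these bulk libraries fewer cells carrying a message and less of it per cell cannot be told apart.

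Most members differed little between the groups. Of the 33 tested, 21 lay between the lower and upper quartile of all tested genes (-0.15 and 0.27) and 21 had a 95% interval that lay within a change of 1.5-fold in either direction. The share of all tested genes with such an interval was not computed, so the second count is not particular to these members. Groups did not overlap in 11 members, 5 above and 6 below, which is 33.3% of the tested members against 24.1% of all tested genes (14.2% above and 9.9% below). Control vector replicate 1 held the highest value of 12 tested members and control vector replicate 3 the lowest of 10, so both extremes lay most often in a control library. The smallest adjusted p among the members that did not pass was 0.172.

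**Figure D2:**
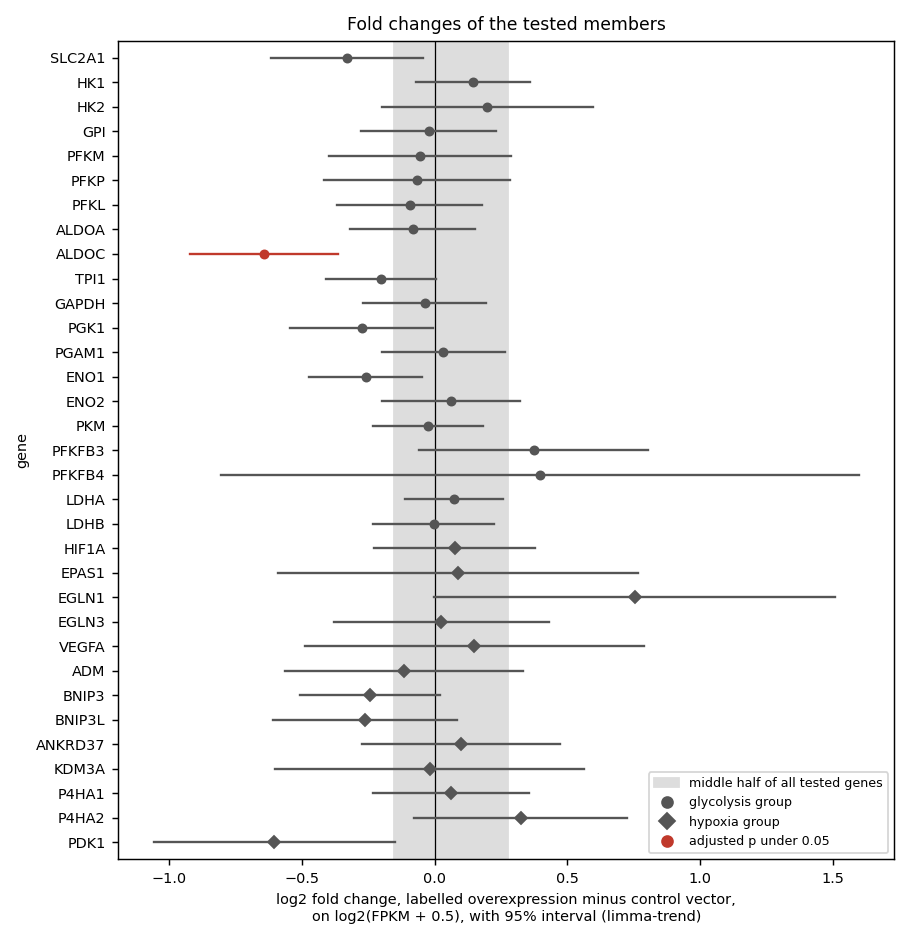
Log2 fold change (labelled overexpression minus control vector) of the 33 tested members with 95% intervals from limma-trend, ordered by role, with glycolysis genes as circles and hypoxia genes as diamonds. ALDOC, in red, at -0.64 is the member with an adjusted p under 0.05, and the grey band spans the quartiles of all tested genes, -0.15 to 0.27.

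Glucose entry was represented by SLC2A1, the widely expressed transporter GLUT1, at 19.8, 16.5 and 17.2 FPKM in labelled overexpression and 24.4, 22.5 and 20.7 FPKM in control vector libraries. Each labelled overexpression library lay below each control, with a log2 fold change of -0.33 (SE 0.13) that did not pass (limma-trend, adjusted p = 0.227). Hexokinases trap glucose as glucose-6-phosphate, and HK1, the form common in brain, outweighed the HIF target HK2. HK1 stood at 76.5, 76.2 and 72.2 FPKM in labelled overexpression and 71.2, 68.9 and 63.4 FPKM in control vector libraries, each labelled overexpression library above each control by a small margin, with a log2 fold change of 0.14 and an adjusted p of 0.474. HK2 averaged 9.25 ± 1.26 FPKM in labelled overexpression and 8.05 ± 1.55 FPKM in control vector libraries (SD, n = 3 each), with overlapping ranges. GPI, which turns glucose-6-phosphate into fructose-6-phosphate, averaged 56.1 ± 0.794 FPKM in labelled overexpression and 57.3 ± 7.17 FPKM in control vector libraries.

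Phosphofructokinase, the committed step, was carried by all 3 isozymes. PFKM, the muscle form, averaged 24.6 ± 2.04 FPKM in labelled overexpression and 25.8 ± 5.09 FPKM in control vector libraries. PFKP, the platelet form, averaged 17.4 ± 1.38 FPKM in labelled overexpression and 18.4 ± 3.51 FPKM in control vector libraries, and PFKL, the liver form, 17 ± 0.510 FPKM in labelled overexpression and 18.2 ± 1.55 FPKM in control vector libraries (SD, n = 3 each). Their log2 fold changes were -0.05, -0.07 and -0.09, which became 0.06, 0.04 and 0.01 with values rescaled to a common total. PFKFB3 and PFKFB4 make fructose-2,6-bisphosphate, the activator of this step. PFKFB3 stood at 2.82, 3.06 and 3.29 FPKM in labelled overexpression and 2.16, 2.49 and 2.08 FPKM in control vector libraries, without overlap, at a log2 fold change of 0.37 (SE 0.19, limma-trend adjusted p = 0.350). PFKFB4 stood at 3.30, 2.61 and 2.78 FPKM in labelled overexpression and 4.25, 3.59 and 0.373 FPKM in control vector libraries. Its control vector replicate 3 rested on 99 fragments, against 1170 and 636.5 in replicates 1 and 2, and the log2 fold change of 0.40 turned to -0.38 without that library (limma-trend, adjusted p = 0.746 with it and 0.342 without it).

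Aldolase splits fructose-1,6-bisphosphate, and 1 of its isozymes passed the test. ALDOC (ENSG00000109107, GRCh38 chromosome 17, 28573115 to 28576948, minus strand) stood at 26.1, 22.3 and 23.5 FPKM in labelled overexpression and 41.3, 38.9 and 33.4 FPKM in control vector libraries. Every labelled overexpression library lay below every control. ALDOC averaged 24.0 ± 1.92 FPKM in labelled overexpression and 37.8 ± 4.07 FPKM in control vector libraries (SD, n = 3 each). The log2 fold change was -0.64 (SE 0.12, 95% interval -0.92 to -0.37, limma-trend adjusted p = 0.0451). The call was lost without any 1 of 5 libraries, at log2 fold changes of -0.71 to -0.58, held without control vector replicate 3, and was lost with the common total per library (-0.53, limma-trend adjusted p = 0.0619). RP11-192H23.5, a noncoding gene inside ALDOC on the other strand, was listed lower as well, at 54.7 ± 5.94 FPKM in labelled overexpression against 93.5 ± 8.07 FPKM in control vector libraries (log2 fold change -0.77, limma-trend adjusted p = 0.0300). Without labelled overexpression replicate 1 or 2, or control vector replicate 2, 0 genes of the table passed in limma-trend (1689, 1612 and 2274 at an unadjusted p under 0.05), so this call was lost there too. RP11-192H23.4, a protein-coding gene that spans ALDOC on the same strand, averaged 12.7 ± 0.276 FPKM in labelled overexpression and 11.1 ± 1.91 FPKM in control vector libraries (SD, n = 3 each), with overlap and a log2 fold change of 0.19 that did not pass (limma-trend, adjusted p = 0.552). The sources used here do not say whether fragments were assigned by strand, which was not tested. Without strand the fragments of ALDOC and RP11-192H23.5 cannot be told apart, and their calls may not be separate. Inside GAPDH, RP5-940J5.9 on the other strand averaged 4838 FPKM in labelled overexpression and 4650.2 FPKM in control vector libraries, against 2499.9 and 2564.8 FPKM for GAPDH. ALDOA, the ubiquitous aldolase, stood at 218, 231 and 199 FPKM in labelled overexpression and 242, 243 and 203 FPKM in control vector libraries, with overlap and a log2 fold change of -0.08 (95% interval -0.32 to 0.15).

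The promoter of ALDOC is shown with those of PDK1, ENO1 and PGK1, members with a lower mean in the labelled overexpression libraries, and of LDHA, a well-known HIF target without one. These are examples and not all of the lower members, and the groups of PGK1 overlapped. PDK1 and LDHA have 2 windows each in the table, and the one with more ACGTG is shown. Each is the RefSeq window (GRCh38.p14) of 250 bases before to 50 after a gene start, read 5′ to 3′ on the strand of the gene, and capitals mark ACGTG or GCGTG, the letters at the core of HIF sites, on either strand. On the opposite strand these read CACGT and CACGC, and CACGTG holds ACGTG on both.
ALDOC, chr17:28576846-28577145, minus strand: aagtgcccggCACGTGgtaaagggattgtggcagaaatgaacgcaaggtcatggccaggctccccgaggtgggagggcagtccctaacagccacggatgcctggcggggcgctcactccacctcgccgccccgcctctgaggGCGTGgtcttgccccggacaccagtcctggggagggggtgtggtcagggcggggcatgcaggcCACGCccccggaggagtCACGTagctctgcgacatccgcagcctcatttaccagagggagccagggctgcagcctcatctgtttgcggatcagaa
PDK1, chr2:172555840-172556139, plus strand: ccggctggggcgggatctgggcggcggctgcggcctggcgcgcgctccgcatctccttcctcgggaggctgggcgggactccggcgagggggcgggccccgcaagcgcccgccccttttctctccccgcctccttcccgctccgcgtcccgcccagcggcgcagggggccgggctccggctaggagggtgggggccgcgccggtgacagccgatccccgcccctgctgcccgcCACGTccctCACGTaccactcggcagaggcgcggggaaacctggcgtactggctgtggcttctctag
ENO1, chr1:8878637-8878936, minus strand: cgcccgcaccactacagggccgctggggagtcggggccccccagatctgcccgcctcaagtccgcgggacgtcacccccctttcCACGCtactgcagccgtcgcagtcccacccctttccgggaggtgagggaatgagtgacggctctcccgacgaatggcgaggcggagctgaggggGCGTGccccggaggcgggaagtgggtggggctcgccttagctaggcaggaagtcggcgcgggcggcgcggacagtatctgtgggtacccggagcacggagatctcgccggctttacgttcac
PGK1, chrX:78103998-78104297, plus strand: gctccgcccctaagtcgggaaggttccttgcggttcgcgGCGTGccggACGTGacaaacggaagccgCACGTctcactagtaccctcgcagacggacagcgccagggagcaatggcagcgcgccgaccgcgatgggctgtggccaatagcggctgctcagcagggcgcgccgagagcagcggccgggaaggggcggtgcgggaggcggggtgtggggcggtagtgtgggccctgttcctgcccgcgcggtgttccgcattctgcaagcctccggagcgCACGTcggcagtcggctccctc
LDHA, chr11:18394313-18394612, plus strand: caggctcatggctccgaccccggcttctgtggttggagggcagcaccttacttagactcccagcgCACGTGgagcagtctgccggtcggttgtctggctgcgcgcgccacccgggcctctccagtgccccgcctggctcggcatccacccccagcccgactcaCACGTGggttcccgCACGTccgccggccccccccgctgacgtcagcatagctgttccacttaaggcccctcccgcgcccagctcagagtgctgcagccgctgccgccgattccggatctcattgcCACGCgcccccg
Counting both strands, ACGTG stood 3 times in the ALDOC window, 2 in that of PDK1, 0 in that of ENO1, 3 in that of PGK1 and 5 in that of LDHA, and GCGTG stood 2, 0, 2, 1 and 1 times. The other PDK1 window (chr2:172555123-172555422), at the start of the gene in the deposited table, held 0 of either, and the other LDHA window (chr11:18396101-18396400) held 0 ACGTG and 1 GCGTG. SLC2A1, TPI1 and BNIP3 also lay below all controls and are not shown. The SLC2A1 window held 0 ACGTG and 1 GCGTG, and that of BNIP3 held 2 and 4. Of the TPI1 windows, 1 held 0 of either and the other 1 of each. RefSeq windows were found for 32 of the 36 members, 56 windows in all because several genes have more than 1 start. ACGTG was present in 39.3% of these windows, against 26.2% of the 12474 windows of tested genes and 21.4% of all 35116 windows of that length. GCGTG was present in 41.1% of the member windows, against 49.7% and 36.5%. Both strings contain CG, and the windows differed in it. The median was 28 CG and 68.8% GC in member windows, 25 and 65% in those of tested genes and 14 and 58.7% in all. Whether this accounts for the shares was not tested. Windows of the same gene can overlap, and a match describes letters, not binding.

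The steps from triose phosphate to pyruvate held the most abundant members. TPI1, which interconverts the triose phosphates, stood at 905, 865 and 885 FPKM in labelled overexpression and 1072, 1073 and 917 FPKM in control vector libraries. The groups did not overlap, although control vector replicate 3 lay close to the labelled overexpression libraries, and the log2 fold change was -0.20 (SE 0.09, limma-trend adjusted p = 0.289). GAPDH, often taken as a reference gene, had a log2 fold change of -0.04 (95% interval -0.27 to 0.19), and 0.07 with the common total per library. PGK1, which makes the first ATP of the pathway, stood at 189, 162 and 212 FPKM in labelled overexpression and 248, 202 and 229 FPKM in control vector libraries. Its groups overlapped between labelled overexpression replicate 3 and control vector replicate 2, and the log2 fold change was -0.28 (SE 0.12, limma-trend adjusted p = 0.276). PGAM1, the mutase that follows, averaged 274 ± 29.4 FPKM in labelled overexpression and 267 ± 17.4 FPKM in control vector libraries (SD, n = 3 each). GAPDH, TPI1 and ENO2 are near neighbours on chromosome 12 (GRCh38, starts at 6534512, 6867119 and 6913745), with log2 fold changes of -0.04, -0.20 and 0.06.

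Enolase makes phosphoenolpyruvate. ENO1, the ubiquitous form, stood at 610.1, 547 and 624 FPKM in labelled overexpression and 762, 715 and 658 FPKM in control vector libraries. Every labelled overexpression library lay below every control, at a log2 fold change of -0.26 (SE 0.09) that did not pass (limma-trend, adjusted p = 0.202). ENO2, the neuronal form, stood at 66.6, 64.3 and 66.4 FPKM in labelled overexpression and 73.4, 60.2 and 56.6 FPKM in control vector libraries, within the wider range of the controls. PKM, pyruvate kinase, whose M1 and M2 splice forms are not separated in a gene table, averaged 234 ± 11 FPKM in labelled overexpression and 238 ± 16.6 FPKM in control vector libraries (SD, n = 3 each). Its log2 fold change was -0.02, with a 95% interval of -0.23 to 0.18.

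At the fate of pyruvate, no member passed the test. LDHA stood at 374, 408 and 379 FPKM in labelled overexpression and 372, 365 and 366 FPKM in control vector libraries, without overlap but at a log2 fold change of 0.07 (95% interval -0.11 to 0.26). LDHB averaged 252 ± 18.4 FPKM in labelled overexpression and 253 ± 23.4 FPKM in control vector libraries (SD, n = 3 each). PDK1, the kinase that shuts the pyruvate dehydrogenase complex and a HIF target, stood at 1.86, 1.54 and 1.63 FPKM in labelled overexpression and 3.03, 2.55 and 2.85 FPKM in control vector libraries. All labelled overexpression libraries lay below all controls, and the log2 fold change was -0.61 (SE 0.20, 95% interval -1.06 to -0.15), which did not pass (limma-trend, adjusted p = 0.172). The scale of log2(FPKM + 0.5) understates the change of such a low gene, whose ratio of means was 0.596. The log2 fold change of PDK1 lay between -0.67 and -0.56 with any library left out. AC093818.1, a noncoding gene over the start of PDK1 on the other strand, also lay below all controls. It averaged 0.571 ± 0.0452 FPKM in labelled overexpression and 1.05 ± 0.0722 FPKM in control vector libraries, on 26 to 111.5 fragments. Its log2 fold change of -0.53 did not pass (limma-trend, adjusted p = 0.304), and the limit on strand given for ALDOC holds here too.

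**Figure D3:**
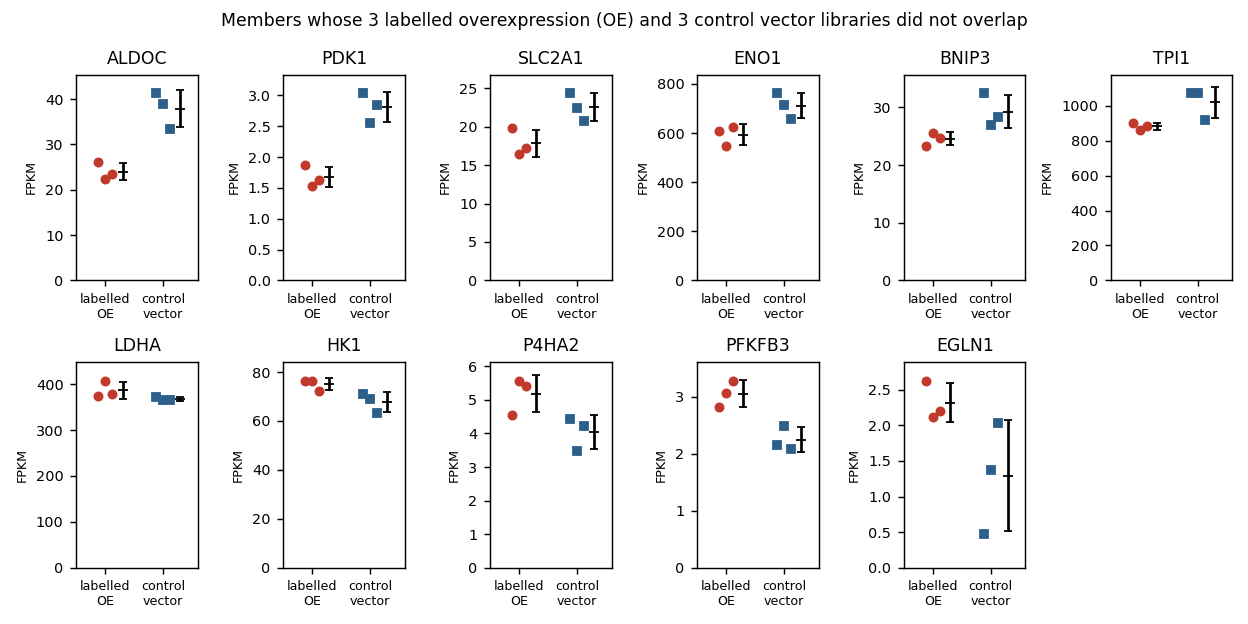
FPKM by library for the 11 members whose groups did not overlap, labelled overexpression left and control vector right in each panel, with mean and SD beside the points and axes starting at 0. Relative to its level, the gap between the nearest libraries of the groups is widest for PDK1 and ALDOC, and slight for LDHA and TPI1.

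Because a ratio of FPKM within a library does not depend on the scaling between libraries, isozyme balance was compared over 12 pairs with values, 10 of which were high enough to test. Groups did not overlap for the aldolase and the enolase pairs. ALDOC made up 10.7%, 8.81% and 10.6% of ALDOA plus ALDOC in labelled overexpression and 14.6%, 13.8% and 14.1% in control vector libraries. The log2 ratio of ALDOC to ALDOA was lower by 0.57 on average in the labelled overexpression libraries (difference -0.57, exact two-sided permutation p = 0.1, adjusted p = 0.5 over the 10 pairs), and the smallest p that 3 against 3 allow is 0.1. ENO2 made up 9.84%, 10.5% and 9.62% of ENO1 plus ENO2 in labelled overexpression and 8.79%, 7.77% and 7.92% in control vector libraries, a difference in log2 ratio of 0.32 (exact permutation p = 0.1, adjusted p = 0.5). With any library left out the differences ran from -0.63 to -0.47 and from 0.28 to 0.38. When the fragments of all genes overlapping a member were added to it, the aldolase difference was -0.39, still without overlap (exact permutation p = 0.1). For ALDOA these include the protein-coding CTD-2515O10.6 on the same strand at 249 ± 18.4 FPKM in labelled overexpression and 264 ± 26.2 FPKM in control vector libraries. Its log2 fold change was -0.08, as for ALDOA. For ALDOC they include RP11-192H23.5 and all fragments of RP11-192H23.4, which had a log2 fold change of 0.19. RP11-192H23.4 runs from 28455752 to 28614185, far beyond ALDOC on either side. How much each added gene moved the difference was not tested. The shares above leave these fragments out, and CTD-2515O10.6 carried nearly as many as ALDOA (18053.9 to 41637.7 against 18112.9 to 41722.2).

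In the other families the groups overlapped. HK2 was 11% ± 1.19 of hexokinase FPKM in labelled overexpression and 10.6% ± 1.62 in control vector libraries (SD, n = 3 each). LDHB was 39.4% ± 2.39 of lactate dehydrogenase in labelled overexpression and 40.7% ± 2.25 in control vector libraries. This share uses LDHB as listed. The protein-coding gene ENSG00000285854, which overlaps it on the same strand, carried 14045.8 to 38773.5 fragments, against 14724.8 to 39965.5 for LDHB. Which lactate dehydrogenase gene had more fragments therefore depends on how those of the overlap are assigned. PFKM, PFKP and PFKL were 41.6%, 29.5% and 28.9% of phosphofructokinase in labelled overexpression and 41.2%, 29.6% and 29.3% in control vector libraries. EPAS1 was 12.5% ± 3.65 of the HIF alpha subunits in labelled overexpression and 12.7% ± 6.30 in control vector libraries. Within the control vector group, replicate 2 stood apart in phosphofructokinase and HIF alpha, at 36.3% PFKP against 26.4% and 26.0%, and at 20.0% EPAS1 against 8.65% and 9.47%. P4HA2 was 21.6% ± 0.513 of P4HA1 plus P4HA2 in labelled overexpression and 18.4% ± 2.49 in control vector libraries, with overlap at control vector replicate 1.

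**Figure D4:**
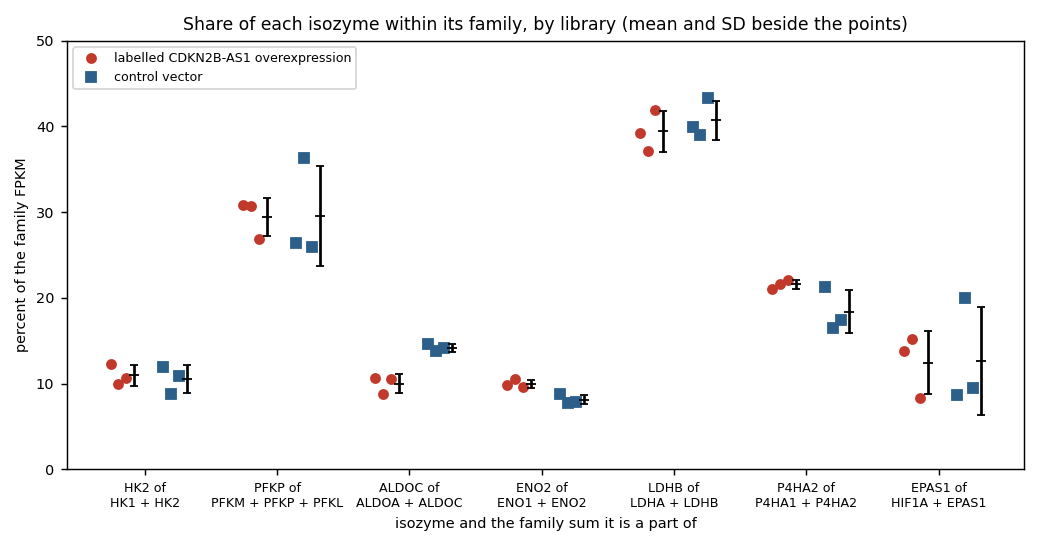
Share of one isozyme in the summed FPKM of its family (percent) by library, labelled overexpression as circles left of control vector as squares, with mean and SD beside the points. Values are as listed, without the fragments of overlapping genes. Points of the groups are apart for ALDOC (10.02% against 14.2% on average) and ENO2 (9.99% against 8.16%) and overlap for the other families drawn.

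Messages for HIF itself did not differ detectably. HIF1A, the general alpha subunit, stood at 26.7, 31.1 and 33.4 FPKM in labelled overexpression and 33, 25.7 and 27.9 FPKM in control vector libraries, with overlap and a log2 fold change of 0.07 (95% interval -0.23 to 0.38). EPAS1, the other alpha subunit, stood at 4.30, 5.57 and 3.03 FPKM in labelled overexpression and 3.13, 6.41 and 2.91 FPKM in control vector libraries, with a 95% interval of -0.59 to 0.76. EGLN1, the main oxygen-sensing prolyl hydroxylase, stood at 2.63, 2.12 and 2.2 FPKM in labelled overexpression and 0.476, 1.37 and 2.03 FPKM in control vector libraries. The groups did not overlap, by a narrow margin at control vector replicate 3. Its log2 fold change of 0.75 (SE 0.34, limma-trend adjusted p = 0.283) was 0.37 without control vector replicate 1, where the value rested on 115.5 fragments. RP5-876B10.7, a protein-coding gene that covers nearly all of EGLN1 on the same strand, carried 222.33 to 564.08 fragments, against 115.5 to 580.25 for EGLN1. Groups of RP5-876B10.7 overlapped, at a log2 fold change of 0.26 that did not pass (limma-trend, adjusted p = 0.640). How fragments were divided between them was not tested. EGLN3, a hydroxylase that HIF induces, averaged 3.36 ± 0.263 FPKM in labelled overexpression and 3.29 ± 0.278 FPKM in control vector libraries (SD, n = 3 each).

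HIF targets outside glycolysis gave no common direction. BNIP3 and BNIP3L are mitophagy receptors of the outer mitochondrial membrane. BNIP3 stood at 23.4, 25.6 and 24.7 FPKM in labelled overexpression and 32.5, 27.0 and 28.4 FPKM in control vector libraries, without overlap, at a log2 fold change of -0.24 (SE 0.12, limma-trend adjusted p = 0.313). BNIP3L stood at 18.6, 17 and 24.9 FPKM in labelled overexpression and 22.2, 24.6 and 25.3 FPKM in control vector libraries, overlapping through labelled overexpression replicate 3. P4HA1 and P4HA2 are catalytic subunits of the collagen prolyl hydroxylases. P4HA2 stood at 4.55, 5.58 and 5.41 FPKM in labelled overexpression and 4.43, 3.46 and 4.23 FPKM in control vector libraries, without overlap, at a log2 fold change of 0.32 (SE 0.18, limma-trend adjusted p = 0.378), and P4HA1 had 0.06. VEGFA, the growth factor of blood vessels, stood at 1.33, 2.17 and 1.12 FPKM in labelled overexpression and 1.11, 1.84 and 1.04 FPKM in control vector libraries, and in both groups replicate 2 was the highest.

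The groups overlapped for the remaining targets. ADM, the vasodilator peptide adrenomedullin, averaged 5.44 ± 0.931 FPKM in labelled overexpression and 5.96 ± 1.3 FPKM in control vector libraries. KDM3A, a histone H3 lysine 9 demethylase, averaged 3.17 ± 0.717 FPKM in labelled overexpression and 3.28 ± 1.03 FPKM in control vector libraries. ANKRD37, a small ankyrin repeat protein, averaged 5.19 ± 0.117 FPKM in labelled overexpression and 4.83 ± 0.575 FPKM in control vector libraries (SD, n = 3 each). Their log2 fold changes were -0.11, -0.02 and 0.10, and 95% intervals reached as far as -0.60 and 0.56 for KDM3A, so changes inside these intervals are not excluded. The interval ends are not a limit of detection, as PDK1 at -0.61 and EGLN1 at 0.75 did not pass either.

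Further genes of the pathways were read from 6 lists of 108 genes, of which 72 were tested and 0 passed in limma-trend with Benjamini-Hochberg adjustment, with 9 at an unadjusted p under 0.05. These 9 are 12.5% of the list genes tested, against 17.7% of all tested genes. Groups did not overlap in 19.4% of the list genes tested, 8 above and 6 below, against 24.1% of all tested genes. Of 24 tested hypoxia-responsive genes 10 had values above 0 and 14 below (median -0.06). Those of smallest p were COX4I2, a subunit of cytochrome c oxidase, and HILPDA, a lipid droplet protein. COX4I2 stood at 2.66, 2.56 and 1.62 FPKM in labelled overexpression and 5.07, 3.45 and 6.27 FPKM in control vector libraries (limma-trend adjusted p = 0.109). HILPDA stood at 33.2, 25.8 and 27.9 FPKM in labelled overexpression and 39.1, 44.2 and 36.9 FPKM in control vector libraries (limma-trend adjusted p = 0.123). Neither gene's groups overlapped. Among 9 tested HIF pathway regulators ARNT2, a neuronal partner of the HIF alpha subunits, averaged 6.91 ± 0.573 FPKM in labelled overexpression and 4.90 ± 0.387 FPKM in control vector libraries, without overlap (log2 fold change 0.46, limma-trend adjusted p = 0.185), and VHL had a log2 fold change of 0.33.

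Genes of pyruvate and lactate transport and of pyruvate dehydrogenase, the complex that PDK1 inhibits, had the highest list median, 0.15. Of 13 tested values 9 were above 0 (69.2%, against 56.8% of all tested genes). The transport genes SLC16A1, BSG, MPC1 and MPC2 had -0.06, -0.16, -0.03 and 0.12. The count above 0 includes PDK2 and PDK3, which like PDK1 are kinases of the complex, at 0.15 and 0.10. PDHA1 and DLD had the smallest p of the list. PDHA1, the catalytic alpha subunit of the complex, stood at 26.0, 29 and 26.9 FPKM in labelled overexpression and 22.8, 18.5 and 21.8 FPKM in control vector libraries, without overlap (log2 fold change 0.37, limma-trend adjusted p = 0.172). DLD, the dihydrolipoamide dehydrogenase subunit, averaged 39.8 ± 2.63 FPKM in labelled overexpression and 31.6 ± 2.85 FPKM in control vector libraries (SD, n = 3 each), also without overlap (log2 fold change 0.33, limma-trend adjusted p = 0.188). The median was 0.08 over 9 tested further glycolysis isozymes and regulators, where TIGAR and SLC2A10 had 0.39 and 0.54. Over 7 tested pentose phosphate genes it was 0.00, with RPIA at 0.28 and TALDO1 at -0.19, and over 10 tested genes of gluconeogenesis and glycogen it was 0.08, with PC at -0.24 and PYGL at 0.43.

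**Figure D5:**
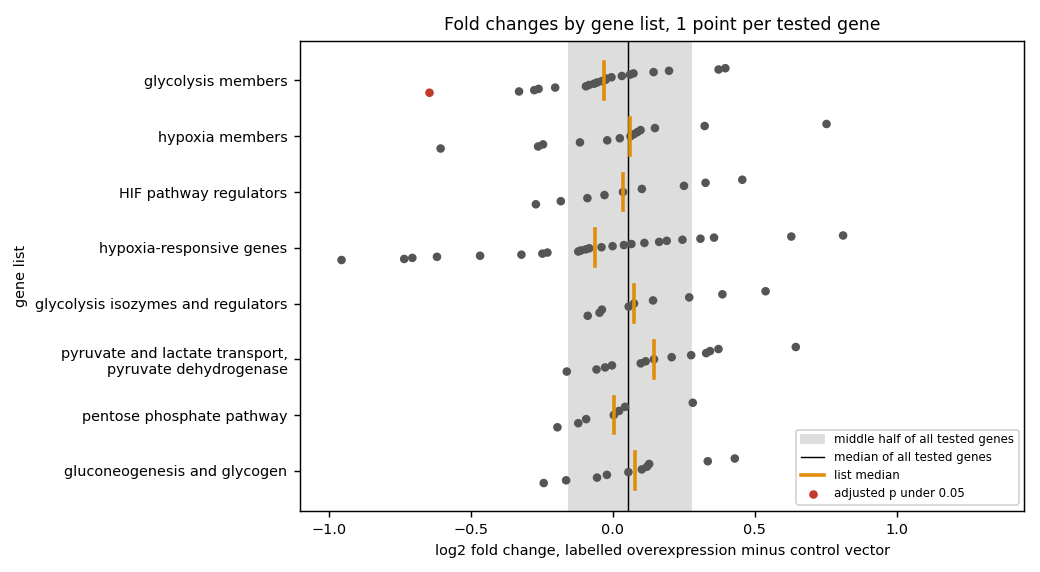
Log2 fold change (labelled overexpression minus control vector) of every tested gene by list, with the list median in orange, the median of all tested genes (0.05) as a black line and their quartiles in grey. List medians run from -0.06 to 0.15, and the red ALDOC point at -0.64 is the gene with an adjusted p under 0.05.

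Shared sequence limits some members. Pseudogenes named after members numbered 152, of which 18 were tested and 0 passed, with 7 of the 18 below 0. TPI1P1 had the highest level of them, 70.6 ± 6.52 FPKM in labelled overexpression and 84.0 ± 6.87 FPKM in control vector libraries (SD, n = 3 each), a log2 fold change of -0.25 beside -0.20 for TPI1. Pseudogenes of GAPDH took 0.65% to 0.81% of the fragments of GAPDH and its pseudogenes, those of TPI1 2.14% to 2.43% and those of BNIP3 5.71% to 7.90%. Of the 36 members 22 overlapped a gene that reached 1 FPKM in some library. GAPDH overlaps RP5-940J5.9 on the other strand, which stood at 4838 ± 717 FPKM in labelled overexpression and 4650.2 ± 551 FPKM in control vector libraries, and LDHB shares its strand with an overlapping protein-coding gene (ENSG00000285854) at 140.5 ± 11.3 FPKM in labelled overexpression and 141 ± 13.7 FPKM in control vector libraries. Of all genes overlapping a member, RP11-192H23.5 over ALDOC was the 1 that passed the test, with the limit on strand given above.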

How the data were processed

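Per the labels' protocols, column-purified RNA of 6 SH-SY5Y samples was turned into SMART-seq libraries, which were sequenced as paired ends. Tools listed in the submitters' processing notes are featureCounts 2.0.1 and STAR 2.7.9, with builds hg38 and GRCh38.p13. Their options and any use of strand are not stated there. Per the file headers, the deposited values are FPKM of each gene, beside its length and position. FPKM times length in kilobases summed to 1e+06 per library. Depth was recovered as the smallest total at which values were multiples of 0.01 fragments (44.2% to 49.0% whole), so no count model was used.

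Genes with at least 1 FPKM in at least 3 libraries were transformed to log2(FPKM + 0.5) and tested by limma-trend (limma 3.58.1 in R 4.3.3) without a block, with Benjamini-Hochberg adjustment at 0.05. The members, lists and the rule for named genes (all members, the targeted gene, overlapping genes and pseudogenes with signal, genes of other lists that passed or the 2 of smallest p in each) were chosen with earlier results of these data known. Isozyme ratios were compared with exact permutation tests (scipy 1.17.1). Alternatives covered pseudocount, filter, trend, scaling, weights, block, each library left out and, chosen after seeing the data, gene length and overlapping genes. Promoter windows came from RefSeq (GRCh38.p14).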

Additional observations from a re-analysis of the deposited data

How the results depend on the processing

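With no filter on low values, and without the mean-variance trend, 0 genes and 0 members passed in limma (3538 and 2304 genes at an unadjusted p under 0.05), with 339 genes at a filter of 5 FPKM and 265 with array weights. ALDOC lost its call with no filter on low values and without the mean-variance trend, at -0.64 in both (limma adjusted p = 0.172 and 0.155). With any library left out 0 to 139 genes and 0 to 1 members passed. The replicate numbers were not treated as pairs, since same-numbered libraries deviated together at r = -0.024, 0.11 and 0.12. The replicate block gave 229 genes and kept the ALDOC call (-0.64, limma-trend adjusted p = 0.0400). Under the common total 0 members passed, and the group medians were 0.080 (glycolysis) and 0.17 (hypoxia). With the length trend removed they were -0.14 and -0.050, and the hypoxia median was -0.026 at a filter of 5 FPKM and -0.030 to 0.11 with a library left out.

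Of 33 members, 15 kept their sign in every setting tried, and PFKL and ALDOA turned only under the common total, which moved the median of all genes by 0.10. Under the common total GPI, PFKM, PFKP, PFKL, ALDOA, GAPDH, PKM, LDHB and KDM3A turned to 0.088, 0.055, 0.043, 0.015, 0.028, 0.074, 0.087, 0.11 and 0.078. PGAM1 and EGLN3 turned to -0.014 and -0.015 with median-of-ratios factors, LDHA, EPAS1, EGLN3 and VEGFA to -0.020, -0.034, -0.10 and -0.050 without the length trend, and ADM to 0.015 with array weights. With a library left out the ranges were -0.23 to 0.044 for ADM, -0.030 to 0.085 for EGLN3, -0.015 to 0.17 for ENO2, -0.10 to 0.41 for EPAS1, -0.10 to 0.037 for GAPDH, -0.11 to 0.069 for GPI, -0.0033 to 0.17 for HIF1A, -0.26 to 0.14 for KDM3A, -0.063 to 0.068 for LDHB, -0.38 to 0.84 for PFKFB4, -0.18 to 0.092 for PFKM, -0.20 to 0.066 for PFKP, -0.054 to 0.086 for PGAM1, -0.075 to 0.026 for PKM and -0.061 to 0.34 for VEGFA. Log2 ratios ranged from -0.074 to 0.17 for HK2 to HK1, -0.15 to 0.25 for PFKP to PFKM, -0.12 to 0.046 for PFKL to PFKM, -0.088 to 0.21 for PFKP to PFKL, -0.83 to 0.90 for PFKFB4 to PFKFB3, -0.23 to 0.47 for EPAS1 to HIF1A and -0.18 to 0.12 for BNIP3L to BNIP3. With overlapping genes added, P4HA2 to P4HA1 turned to -0.029 and BNIP3L to BNIP3 to 0.16. The causes were not tested.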
